A study of Mus musculus with 7 samples.

Results

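The Dlx and Sp inhibitory lineage factors described here are Dlx1, Dlx2, Dlx5, Dlx6, Dlx6os1, Sp8 and Sp9. They were taken by symbol from the gene list shared by all libraries, and all 7 were present among its 31053 genes. The study profiled single cells of the mouse brain with the droplet-based 10x Chromium 3' kit, which counts unique molecular identifiers (UMIs), in 7 libraries. Cortex libraries came from CD1 mice at P2, P7, P15 and P60, from tissue above the lateral ventricles that held the ventricular-subventricular zone (V-SVZ), white matter and grey matter. The P60 grey matter library came from CD1 tissue above the cortical white matter. The P60 white matter library came from CD1 tissue just above the ventricles, with corpus callosum and V-SVZ. The P7 SVZ library came from the dorsal and lateral V-SVZ of C57BL/6 mice. The labels name no treatment. Here P2, P7 and P15 are grouped as early postnatal (4 libraries) and P60 as adult (3 libraries). The labels do not say whether libraries came from separate animals. The p-values therefore cover only differences among these libraries, which may be technical.

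Dlx genes encode homeodomain transcription factors that are made in progenitors of the ventral forebrain and in the GABAergic neurons these produce. They sit in the genome as neighbouring pairs, and Dlx1 and Dlx2 are known to act ahead of Dlx5 and Dlx6 through enhancers between the latter. Dlx6os1, also called Evf2, is a long noncoding RNA of the Dlx5 and Dlx6 locus. Sp8 and Sp9 encode zinc-finger factors used by interneurons of the olfactory bulb, by cortical interneurons of caudal origin (Sp8) and by striatal projection neurons (Sp9). In the postnatal V-SVZ, stem cells give rise to dividing transit-amplifying cells and then to neuroblasts, which migrate to the olfactory bulb.

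On mm10, with GENCODE M21 positions, Dlx1 (chr2:71528113-71533981, plus strand) and Dlx2 (chr2:71543408-71546754, minus strand) lie 9.4 kb apart. Sp9 (chr2:73271925-73284706, plus strand) lies on the same chromosome, 1725.2 kb from Dlx2. Dlx5 (chr6:6877805-6882085, minus strand) and Dlx6 (chr6:6863334-6868568, plus strand) are 9.2 kb apart. Dlx6os1 (chr6:6820189-6871592, minus strand) spans the whole of Dlx6 on the other strand, with 0 bases of exon overlap. Sp8 (chr12:118846329-118852576, plus strand) stands alone. Dlx1 shares 335 exonic bases with the antisense gene Dlx1as. Whether reads were counted by strand is not given in the sources used here. It is therefore not known whether reads of Dlx1 and Dlx1as in that stretch were told apart.

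The upstream stretches of Dlx2, Sp9, Dlx6os1 and Sp8 are shown as examples, at the most upstream start listed for each. They come from RefSeq's promoter table (GRCm38.p6), which held 5 of the 7 genes, and each ends just upstream of a transcription start and reads 5′ to 3′ on the strand of its gene. Capitals mark 3 motifs, each searched on both strands. The homeodomain core TAATTA reads alike on both strands. The GC box bound by Sp factors was searched as GGGCGG, which on the opposite strand appears as CCGCCC. The CCAAT box was searched with its opposite-strand form, which is ATTGG. Among 32851 promoters of the table, 4.8% held TAATTA, 32.7% the GC box and 33.8% the CCAAT box in the 250 bases upstream. The Dlx2 stretch (chr2:71546755-71547004, minus strand) and the Sp9 stretch (chr2:73271676-73271924, plus strand) each held a GC box, with 1 and 2 CCAAT boxes. The Dlx6os1 stretch (chr6:6869534-6869783, minus strand), which lies in an exon of a longer Dlx6os1 transcript, held 2 TAATTA motifs and 1 CCAAT box. The Sp8 stretch (chr12:118846079-118846328, plus strand) held 1 CCAAT box. The motifs differed between starts of a gene. Of 2 further Sp8 starts, the stretch at chr12:118846983-118847232 held 1 GC box and 1 CCAAT box, and that at chr12:118847309-118847553, inside the Sp8 transcript, held 1 TAATTA. A second Dlx6os1 start (chr6:6861684-6861933) held 1 TAATTA. The Dlx1 stretch (chr2:71529195-71529439), which lies in an untranslated region of Dlx1 and is not printed, held 0 of the 3 motifs. A match is a description of letters and shows no binding.
Dlx2: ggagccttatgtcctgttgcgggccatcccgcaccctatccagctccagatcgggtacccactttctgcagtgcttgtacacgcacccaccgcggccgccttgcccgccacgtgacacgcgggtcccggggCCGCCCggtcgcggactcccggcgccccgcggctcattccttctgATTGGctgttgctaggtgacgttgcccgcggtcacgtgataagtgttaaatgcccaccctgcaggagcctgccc
Sp9: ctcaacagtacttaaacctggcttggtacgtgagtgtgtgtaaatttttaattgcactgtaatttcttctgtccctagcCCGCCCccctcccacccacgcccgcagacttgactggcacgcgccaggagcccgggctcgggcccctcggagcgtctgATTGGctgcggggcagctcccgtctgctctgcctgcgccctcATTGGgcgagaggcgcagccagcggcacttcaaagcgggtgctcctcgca
Dlx6os1: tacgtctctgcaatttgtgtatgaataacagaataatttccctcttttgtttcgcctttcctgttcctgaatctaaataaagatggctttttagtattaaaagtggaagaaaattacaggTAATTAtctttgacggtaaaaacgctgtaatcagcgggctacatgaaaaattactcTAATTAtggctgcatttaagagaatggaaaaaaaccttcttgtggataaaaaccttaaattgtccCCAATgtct
Sp8: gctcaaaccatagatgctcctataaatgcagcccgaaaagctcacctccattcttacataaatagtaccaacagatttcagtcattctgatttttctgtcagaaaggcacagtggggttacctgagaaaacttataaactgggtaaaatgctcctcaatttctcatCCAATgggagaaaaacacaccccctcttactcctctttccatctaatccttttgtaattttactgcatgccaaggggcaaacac

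After filtering, 20697 of 25747 barcodes were kept, and library totals ran from 10074763 to 45668007 UMIs. The 7 genes were left out of the clustering and of the marker lists, so that cell classes were drawn without them. The 46 clusters were named from markers, and 3 clusters (506 cells) stayed unnamed. P7 SVZ stood apart in quality, with 39.8% of its barcodes above the limit of 10% mitochondrial UMIs. Across libraries, 140 of the 20556 barcode sequences of kept cells occurred in more than 1 library. The ending "-like" marks class names drawn from RNA markers alone. Counts were summed per class and library where there were at least 20 cells, and levels are given in CPM, the UMIs of a gene scaled to the same total for every sum.

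Neuroblast-like cells, which expressed the migration gene Dcx at 595 ± 255 CPM (SD, n = 6 libraries) and the GABA synthesis gene Gad2 at 379 ± 101, carried the highest mean level of 6 of the 7 genes among the cell classes. The exception was Dlx6, whose mean was 36.1 ± 15.5 CPM here and 50.8 ± 7.91 CPM (n = 2) in striatal neuron-like cells, a difference that did not pass the test given below. Neuroblast-like sums were made from 43 cells (P60 cortex and P15 cortex) up to 540 cells (P7 SVZ), with 128027 to 1903478 UMIs. P60 grey matter yielded 1 such cell and no sum.

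In neuroblast-like cells Dlx1 lay between 476 CPM (P7 SVZ) and 859 CPM (P7 cortex), with a median of 595 over the 6 libraries. Dlx2 ran from 335 CPM (P7 SVZ) through a median of 488 to 783 CPM (P7 cortex). P7 SVZ was the lowest and P7 cortex the highest library for both genes of this neighbouring pair, but not for them alone. P7 cortex was also the highest for Dlx6os1, Sp8 and Sp9, and P7 SVZ the lowest for Dlx5.
Dlx5 ranged from 240 CPM (P7 SVZ) to 366 CPM (P15 cortex), with a median of 294. Dlx6 was sparse, at 15.6 CPM (2 UMIs, P60 cortex) to 54.4 CPM (50 UMIs, P60 white matter), with a median of 32.8. Dlx6os1, the noncoding RNA of that locus, ranged from 306 CPM (P2 cortex) to 1054 CPM (P7 cortex), with a median of 874. P2 cortex and P15 cortex (366 CPM) were low for Dlx6os1, and the other 4 libraries were all at 811 CPM or more. Sp8 ran from 199 CPM (P2 cortex) to 416 CPM (P7 cortex) with a median of 315. Sp9 ran from 305 CPM (P2 cortex) to 801 CPM (P7 cortex) with a median of 466.

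**Figure D1:**
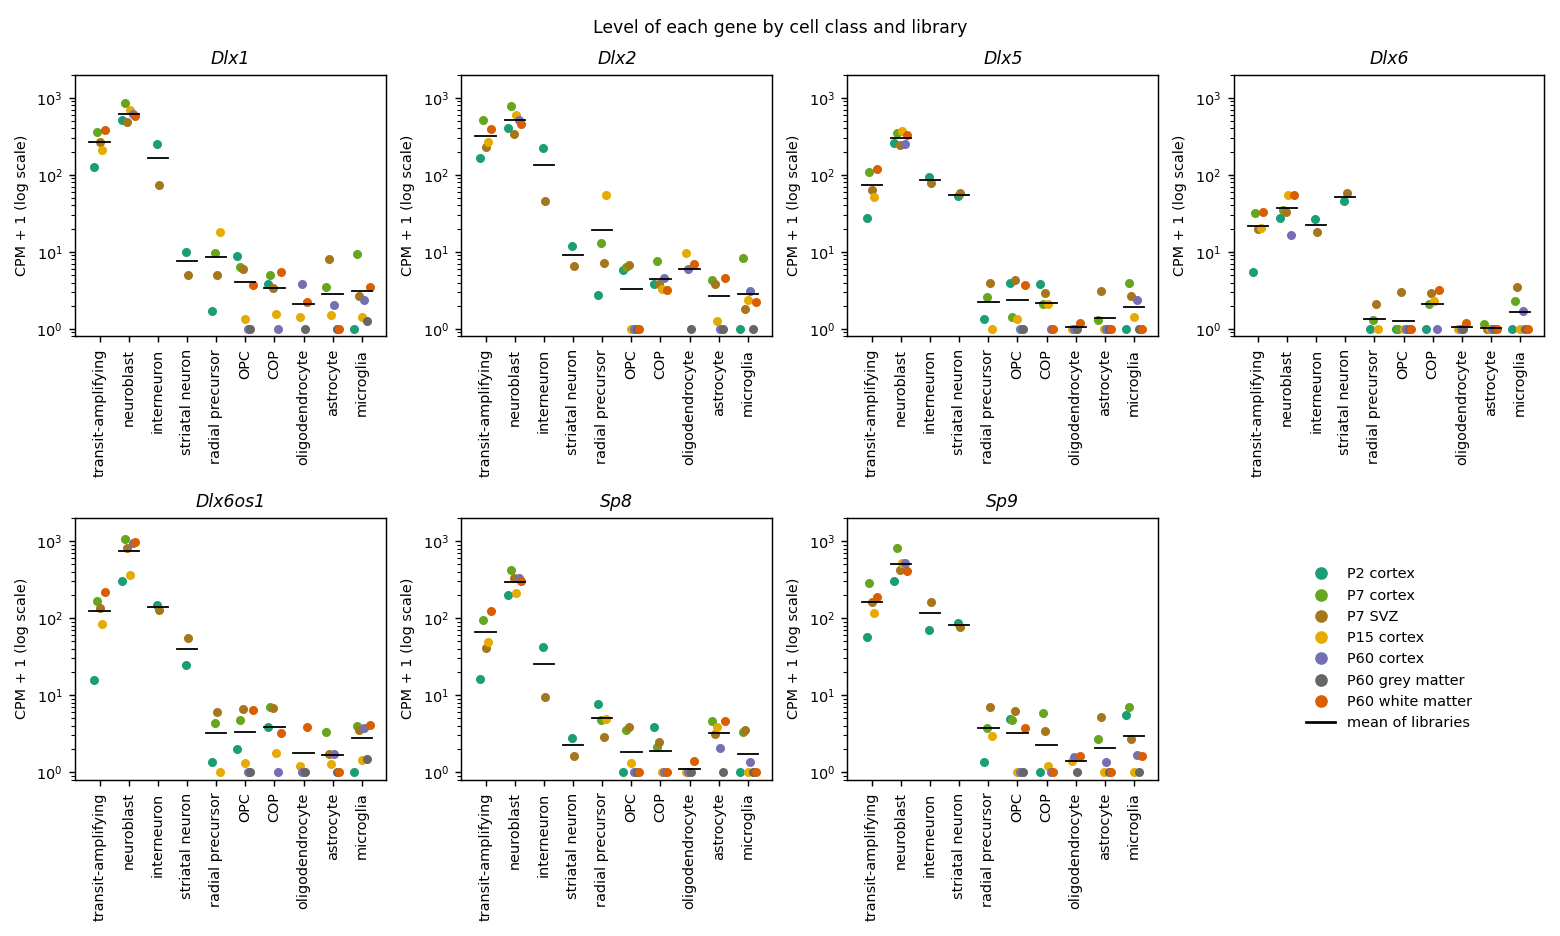
Level of each gene in CPM + 1 on a log axis, by cell class, with 1 point per library of at least 20 cells and a line at the mean of the libraries. The 6 neuroblast-like sums lie above every glial sum for all 7 genes, and in striatal neuron-like cells Dlx5, Dlx6 and Sp9 are at 45.2 CPM or more while Dlx1, Dlx2 and Sp8 are at 10.8 CPM or less.

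Glial cells carried little RNA of these genes. Against oligodendrocyte precursor cell (OPC)-like cells of the same 6 libraries, all 7 genes were higher in neuroblast-like cells in edgeR's quasi-likelihood test (Benjamini-Hochberg adjustment), where 22.7% of all 10568 genes tested were called higher. The log2 fold changes ran from 5.63 ± 0.54 (SE) for Dlx6 to 8.01 ± 0.28 for Dlx6os1, each in 6 of 6 libraries. Their median was 7.47, beside -0.02 over all genes. Here and below, each SE was derived from the fold change and the F of its test, not estimated directly. It does not cover the counting error where a class held few UMIs. All 9 Dlx6 UMIs of the OPC-like sums came from P7 SVZ. Without that library those sums held 0 Dlx6 UMIs, so its fitted value, 8.54, depends on the prior count of the fit, and the other 6 genes lay between 7.80 (Dlx1) and 8.59 (Dlx6os1). The order of the genes in this comparison thus rests on P7 SVZ. The adjusted p-values of this edgeR test over all 6 libraries ran from 4.2e-11 to 6.2e-07. Dlx1 averaged 621 ± 137 CPM in neuroblast-like and 3.56 ± 3.09 CPM (SD, n = 6) in OPC-like cells. The groups did not overlap for any of the 7 genes, as for 21.2% of all genes. The 7 genes passed the count filter through their neuroblast-like counts, since none passed one in OPC-like cells alone. Their calls and lack of overlap were thus largely set by the filter, and the p-values add no support.

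Astrocyte-like cells gave the same picture over 5 libraries, with the same limit from the count filter. All 7 genes were higher in neuroblast-like cells, where 22.8% of 11586 genes were called higher by edgeR, with log2 fold changes from 6.71 ± 0.34 (Sp8) to 9.34 ± 0.52 (Dlx5). Sp8 had the smallest difference here: its astrocyte-like level averaged 2.67 ± 1.09 CPM and reached 3.63 CPM in P7 cortex (23 UMIs). Dlx6 rested on 1 astrocyte-like UMI in the 5 libraries together, which makes the pooled ratio 543 with a counting interval of 96.2 to 21560. Without P7 SVZ the value of Dlx5 was 10.43, of Sp9 9.38 (from 8.69) and of Dlx1 8.78 (from 8.07). Without P7 cortex, Dlx6 was at 8.497 (from 7.89) and Dlx6os1 at 9.92 (from 9.33).

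Against oligodendrocyte-like cells of 3 libraries, all 7 genes were again higher in neuroblast-like cells, where edgeR called 19.2% of 9837 genes higher. Here too the genes passed the count filter mainly through their neuroblast-like counts. The log2 fold change was 5.65 ± 0.28 for Dlx2 and between 7.73 ± 0.79 (Dlx6) and 10.53 ± 0.47 (Dlx5) for the rest. Both ends of that range rested on 1 oligodendrocyte-like UMI each, in P60 white matter, with pooled ratios of 572.7 (counting interval 98.9 to 22993) for Dlx6 and 3704 (661 to 146650) for Dlx5. The 2 Sp8 UMIs and 14 of the 15 Dlx6os1 UMIs came from the same library. Without it Dlx6os1 was at 10.68 (from 8.64) and Dlx6 did not pass the count filter. Dlx5 and Sp8 were then at 0 UMIs in oligodendrocyte-like cells, so that their fitted values, 11.63 and 11.20, depend on the prior count. Without P60 cortex, Dlx1 was at 8.98 (from 8.34). Dlx2 was the gene with the most UMIs in oligodendrocyte-like cells: 42 UMIs in 30 of 203 cells at P15 cortex (8.76 CPM), 9 UMIs in P60 cortex (5.05 CPM) and 29 UMIs in P60 white matter (6.01 CPM). The P60 grey matter sum held 0 UMIs of the 7 genes in 31 cells. Dlx2 made up 80 of the 118 UMIs of the 7 genes in this class, or 67.8% (exact 95% interval 58.6 to 76.1), against 16.2% (15.6 to 16.7) in neuroblast-like and 21.0% (14.99 to 28.1) in microglia-like cells. These intervals cover counting error only. P15 oligodendrocyte-like cells were deep, with a median of 23328 UMIs per cell. After thinning every cell to 2000 UMIs, Dlx2 was seen in 0.57 ± 0.66% of oligodendrocyte-like cells (SD, n = 4) and in 0.19 ± 0.32% of microglia-like cells (n = 7).

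Microglia, which arise outside the neural lineage and should lack these genes, were used as the measure of background RNA. The highest microglia-like values were in P7 cortex, at 8.33 CPM for Dlx1 (25 UMIs), 7.33 CPM for Dlx2 (22 UMIs) and 6.00 CPM for Sp9 (18 UMIs). Over the 23 sums of OPC-like, committed precursor (COP)-like, oligodendrocyte-like and astrocyte-like cells, the highest value of Dlx1 was 7.84 CPM, of Dlx2 8.76, of Dlx5 3.29, of Dlx6 2.21, of Dlx6os1 5.94, of Sp8 3.63 and of Sp9 5.26. For Dlx1, Dlx6 and Sp9 the highest microglia-like value was above these, and for the other 4 genes below. Those highest values came from different libraries for every gene. Within P7 SVZ, Dlx2 was at 0.84 CPM in microglia-like and 5.70 CPM in OPC-like cells, and within P7 cortex at 7.33 and 5.39 CPM. Microglia-like cells held 3 Dlx2 UMIs among 2229312 in P15 cortex, 6 among 2901530 in P60 cortex and 2 among 1590784 in P60 white matter. In the same order, oligodendrocyte-like cells held 42 among 4796228, 9 among 1781284 and 29 among 4824638. Dlx6 was at 0 in 16 of the 23 sums and Dlx5 in 11.

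Some glial UMIs sat in few cells. In P15 cortex, radial precursor-like cells, the class of radial glia and V-SVZ stem cells, held 28 Dlx2 UMIs in 3 of 103 cells, with 14 in a single cell, which gave 53.7 CPM. The other 3 libraries of that class were between 1.74 and 12.1 CPM. Dlx1 in that sum came to 9 UMIs, also in 3 cells. In microglia-like cells, 1 cell held 9 of the 24 Sp9 UMIs, and 1 cell held 8 of the 34 Dlx2 UMIs. In oligodendrocyte-like cells no cell held more than 3 Dlx2 UMIs, and the 80 UMIs were spread over 60 cells. Whether such cells are doublets that the caller missed was not tested.

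**Figure D2:**
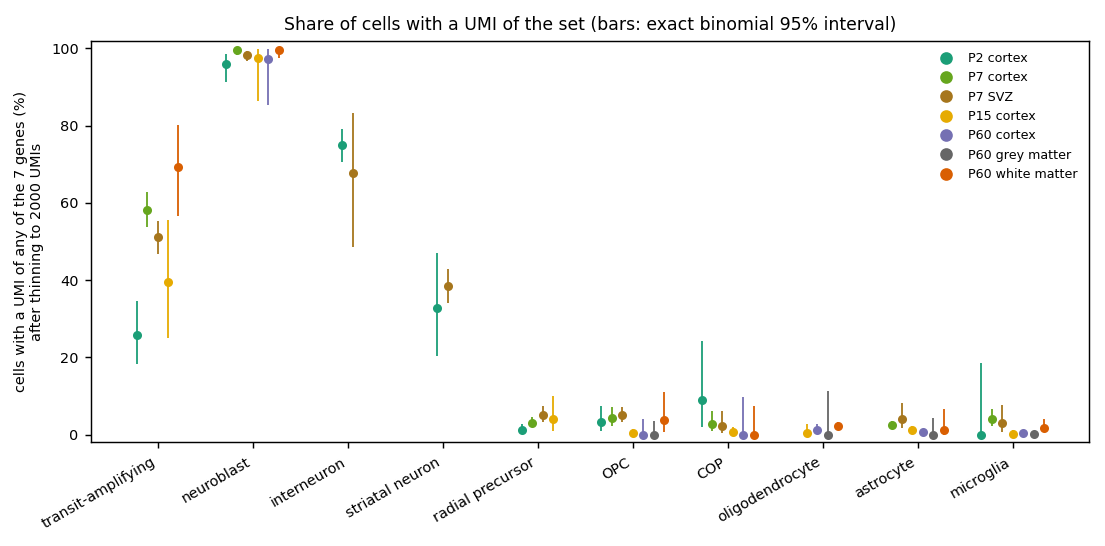
Share of cells with at least 1 UMI of any of the 7 genes, in percent, after thinning each cell to 2000 UMIs, by class, with 1 point per library and exact binomial 95% intervals. Neuroblast-like cells lie between 96.0 and 99.7%, transit-amplifying-like cells between 25.8 and 69.2%, and every glial sum at 9.09% or below.

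Counted per cell, nearly every neuroblast-like cell held RNA of the set. After thinning to 2000 UMIs, which left out 133 shallower neuroblast-like cells, 98.0 ± 1.44% (SD, n = 6) held a UMI of at least 1 of the 7 genes, against 1.41 ± 1.59% (n = 7) of microglia-like cells. Without thinning the shares were 99.4% and 4.55%, at median depths of 2440 to 4278 and 2481.5 to 10264 UMIs. By gene, the thinned share in neuroblast-like cells was 65.8 ± 8.40% for Dlx1, 58.5 ± 9.69% for Dlx2, 41.2 ± 6.58% for Dlx5, 7.14 ± 2.10% for Dlx6, 64.8 ± 18.2% for Dlx6os1, 37.1 ± 8.30% for Sp8 and 59.2 ± 14.3% for Sp9. The share with at least 3 of the genes ran from 51.7% (P2 cortex) to 89.7% (P7 cortex). Of P7 cortex neuroblast-like cells with Dlx2, 81.0% also held Dlx1, beside 80.6% of all cells of that sum. In P60 white matter these were 72.2% and 68.6%, and in P7 SVZ 61.1% and 60.6%, in P15 cortex 60% and 66.7%, and in P60 cortex 50% and 61.1%. Detection of Dlx1 in neuroblast-like cells with Dlx2 thus lay near that in all cells of the sum, and below it in the 2 libraries with the fewest cells. In transit-amplifying-like cells it lay above that in all cells, with no test. In P7 cortex 72.7% of cells with Dlx2 also held Dlx1, beside 43.0% of all cells, and in P2 cortex 60% beside 16.7%. Many cells of that class held none of the 7 genes after thinning, 41.7% in P7 cortex and 74.2% in P2 cortex. The part of such a mix of cells in the difference was not tested.

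Transit-amplifying-like cells, most of whose clusters were led by mitotic or histone genes, carried less of all 7 genes than neuroblast-like cells. Dlx1 was at 127 CPM in P2 cortex, 361 in P7 cortex, 263 in P7 SVZ, 209 in P15 cortex and 379 in P60 white matter, below every neuroblast-like value. Dlx2 was at 162, 514, 230, 268 and 398 CPM in the same order, and its P7 cortex and P60 white matter values overlapped the neuroblast-like range. Dlx2 and Dlx6 were the genes whose ranges overlapped between the classes.
In edgeR's quasi-likelihood test (Benjamini-Hochberg adjustment), 7 of 7 genes were lower than in neuroblast-like cells of the same 5 libraries, where 28.0% of 10028 genes were called lower. The log2 fold changes were -1.27 ± 0.17 (SE) for Dlx1, -0.75 ± 0.14 for Dlx2, -2.12 ± 0.20 for Dlx5, -0.83 ± 0.25 for Dlx6, -2.71 ± 0.21 for Dlx6os1, -2.42 ± 0.25 for Sp8 and -1.68 ± 0.16 for Sp9. For 5 of the 7 genes (all but Dlx2 and Dlx6) the groups did not overlap, as for 26.0% of all genes. Each gene was lower in 5 of 5 libraries, and the adjusted p of this edgeR test was at most 0.0105, for Dlx6. Their median was -1.68, beside -0.02 over all genes. Without the library block, Dlx2 (adjusted p = 0.052, edgeR) and Dlx6 (0.082) were no longer called. With the 7 genes kept in the clustering, all 7 were called and lay lower, from -1.70 (Dlx2) to -5.57 (Dlx6os1). The genes then help to draw the classes, so this setting is no independent check. The Dlx6os1 UMIs of P7 cortex transit-amplifying-like cells fell from 880 to 25 under it.

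For all 7 genes the ratio of transit-amplifying-like to neuroblast-like cells was lowest in P2 cortex. Dlx6os1 stood there at 14.7 CPM in transit-amplifying-like and 306 CPM in neuroblast-like cells, a ratio of 0.0479 (exact 95% interval 0.0286 to 0.0761). Sp8 stood at 15.4 against 199 CPM in that library, a ratio of 0.0775 (0.0463 to 0.124). Sp9 was at 56.5 CPM in P2 cortex and between 115 and 285 CPM in the other 4 libraries. P2 cortex was the lowest transit-amplifying-like library for all 7 genes. The share of all genes that were lowest there, in ratio or in level, was not counted. Cells of the class differed between libraries. After thinning, 25.8% of its P2 cortex cells and 69.2% of its P60 white matter cells held a UMI of the set. The 7 markers of excitatory intermediate precursors summed to 21.2 to 186 CPM in transit-amplifying-like and 0 to 40.7 CPM in neuroblast-like cells. Of the 7, 0 and 2 were at 0. The 10 radial precursor markers summed to 1045 to 6758 against 215 to 688 CPM. The 8 OPC markers came to 99.5 to 830 against 15.6 to 67.8 CPM. The 10 astrocyte markers came to 318 to 1535 against 112 to 400 CPM. For the COP, oligodendrocyte, microglia, interneuron, striatal and excitatory neuron lists the upper end was higher in neuroblast-like cells. Outside P7 SVZ the class was cluster 0 alone, led by mitotic genes. The part of cells of other classes in the difference was not tested.

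**Figure D3:**
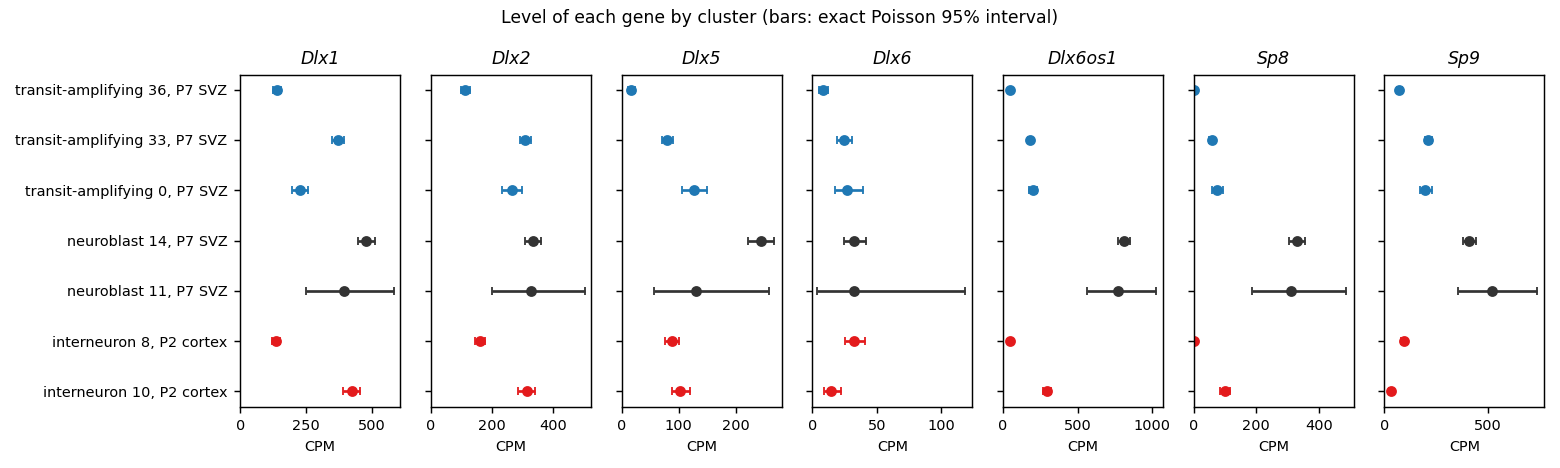
Level in CPM of each gene by cluster, for the transit-amplifying-like and neuroblast-like clusters of P7 SVZ and the interneuron-like clusters of P2 cortex, with exact Poisson 95% intervals that cover counting error only. Cluster 36 lies lowest among the transit-amplifying-like clusters, and interneuron-like cluster 8 has 0.867 CPM of Sp8 while cluster 10 has 99.3 CPM.

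Inside P7 SVZ the transit-amplifying-like cells fell into 3 clusters. Cluster 36 (314 cells), with Hes5, Egfr and Dll1 among its leading genes, held 139 CPM of Dlx1, 113 of Dlx2, 16.9 of Dlx5, 8.04 of Dlx6, 50.6 of Dlx6os1, 2.81 of Sp8 and 73.5 of Sp9. Cluster 33 (241 cells), led by histone genes, held 371 CPM of Dlx1, 311 of Dlx2, 79.7 of Dlx5, 24.6 of Dlx6, 181 of Dlx6os1, 57.6 of Sp8 and 214 of Sp9. Cluster 0 (83 cells of this library), led by mitotic genes, was at 225, 266, 126, 27.1, 198, 75.1 and 199 CPM for the same genes. All 7 genes were lower in cluster 36 than in either dividing cluster, in 1 library and with no test. How many of all genes were so was not counted. The mean share of cells with a UMI of a cycling gene was 0.286 in cluster 36, 0.875 in cluster 33 and 0.756 in cluster 0.

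Interneuron-like cells, with Lhx6 at 173 ± 19.0 CPM (SD, n = 2) and Gad1 among their markers, were numerous in P2 cortex (440 cells) and formed a second sum in P7 SVZ (33 cells). Dlx1 was at 252 CPM in P2 cortex and 72.9 in P7 SVZ, and Dlx2 at 223 and 45.0 CPM. Dlx5 was at 93.8 and 77.2 CPM, Dlx6 at 25.3 and 17.2 CPM and Dlx6os1 at 147 and 127 CPM. Sp8 was at 40.6 and 8.58 CPM, and Sp9 at 69.3 and 163 CPM. Dlx1, Dlx2 and Sp8 were higher in P2 cortex, and Sp9 was higher in P7 SVZ.
In edgeR's quasi-likelihood test over both libraries, 6 of the 7 genes were lower than in neuroblast-like cells, where 7.96% of 9224 genes were called lower. The log2 fold changes of the 6 ran from -1.62 ± 0.27 (Dlx5) to -3.22 ± 0.38 (Sp8), with adjusted p-values (Benjamini-Hochberg) of at most 0.00023. Dlx6 had -0.49 ± 0.41 with an adjusted p of 0.45. The call rests on the library block: without it edgeR called 0 of the 7 genes, with 43 genes higher and 23 lower in all. In P2 cortex alone, the ratio of interneuron-like to neuroblast-like cells was 0.487 (0.428 to 0.555) for Dlx1, 0.204 (0.160 to 0.261) for Sp8 and 0.956 (0.560 to 1.74) for Dlx6, with exact intervals for counting error.

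The P2 cortex interneuron-like cells came from 2 clusters that differed in these genes. Cluster 10 (183 cells), led by Vip, Crh, Pnoc and Adarb2, genes of interneurons of caudal origin, held 423 CPM of Dlx1, 315 of Dlx2, 294 of Dlx6os1, 99.3 of Sp8 and 32.7 of Sp9. Cluster 8 (257 cells), led by Sst, Lhx6, Npy and Nxph1, genes of interneurons of medial origin, held 136 CPM of Dlx1, 162 of Dlx2, 46.8 of Dlx6os1, 0.867 of Sp8 (2 UMIs) and 94.0 of Sp9. Sp8 was thus higher in cluster 10 and Sp9 higher in cluster 8, in 1 library and with no test. Dlx5 was close in both, at 103 and 87.5 CPM, and Dlx6 was at 14.7 and 32.5 CPM. The P7 SVZ sum was made almost only of cluster 8 (31 of 33 cells), where Sp8 was at 4.74 CPM (2 UMIs) and Sp9 at 180 CPM.

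**Figure D4:**
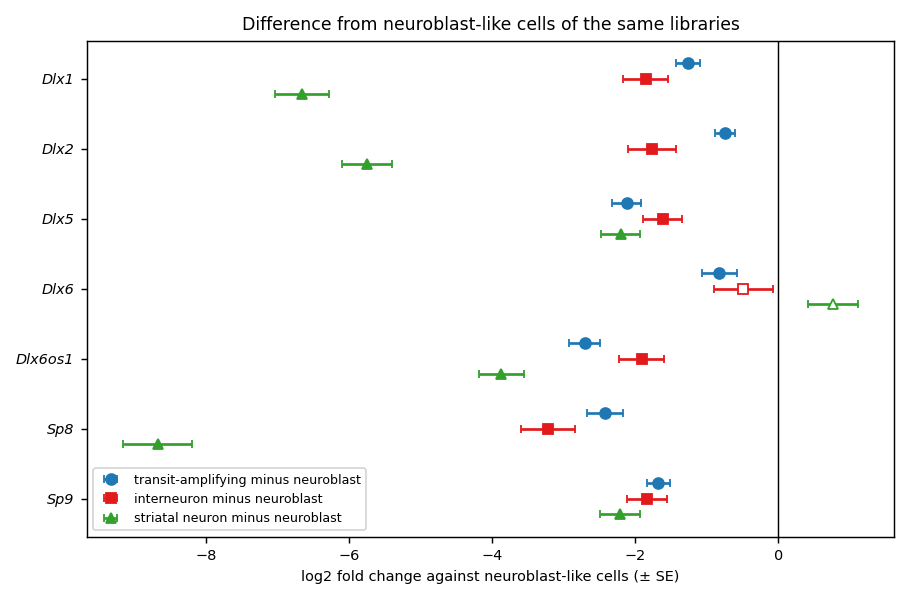
Log2 fold change (± SE) of each gene against neuroblast-like cells of the same libraries, for transit-amplifying-like (5 libraries), interneuron-like and striatal neuron-like cells (2 libraries each); filled symbols passed an adjusted p of 0.05. Dlx1, Dlx2 and Sp8 lie farthest to the left in striatal neuron-like cells, and Dlx6 is the only gene with a value above 0 there. Each SE is derived from the fold change and the F of its test.

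Striatal neuron-like cells, with the projection neuron gene Ppp1r1b at 417 ± 34.95 CPM (SD, n = 2), came from P7 SVZ (508 cells) and P2 cortex (52 cells). The Dlx1 and Dlx2 pair was near the glial level, with Dlx1 at 4.02 CPM in P7 SVZ and 9.04 in P2 cortex, and Dlx2 at 5.57 and 10.8 CPM. Sp8 was low, with 5 UMIs (0.65 CPM) and 1 UMI (1.81 CPM). The Dlx5 and Dlx6 pair was present in both libraries, with Dlx5 at 56.3 and 52.4 CPM, and Dlx6 at 56.4 and 45.2 CPM. Sp9 stood at 75.8 and 85.0 CPM, and Dlx6os1 at 54.1 and 23.5 CPM.
In the same edgeR test (Benjamini-Hochberg adjustment) over these 2 libraries, 6 of the 7 genes were lower than in neuroblast-like cells, where 1206 of 9293 genes (13%) were called lower and 29.6% in either direction. The log2 fold changes were -8.68 ± 0.48 (SE) for Sp8, -6.66 ± 0.38 for Dlx1, -5.76 ± 0.35 for Dlx2, -3.88 ± 0.31 for Dlx6os1, -2.22 ± 0.28 for Sp9 and -2.21 ± 0.27 for Dlx5. Dlx6 had 0.76 ± 0.34, with an adjusted p of 0.096. It passed at a coarser cluster resolution, with 0.94 and an adjusted p of 0.041. In P2 cortex alone, the ratio to neuroblast-like cells was 0.0175 (exact 95% interval 0.00564 to 0.0413) for Dlx1, 0.203 (0.132 to 0.303) for Dlx5 and 1.71 (0.875 to 3.42) for Dlx6. P2 cortex was dissected as cortex, and 52 of its kept cells carried striatal markers.

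**Figure D5:**
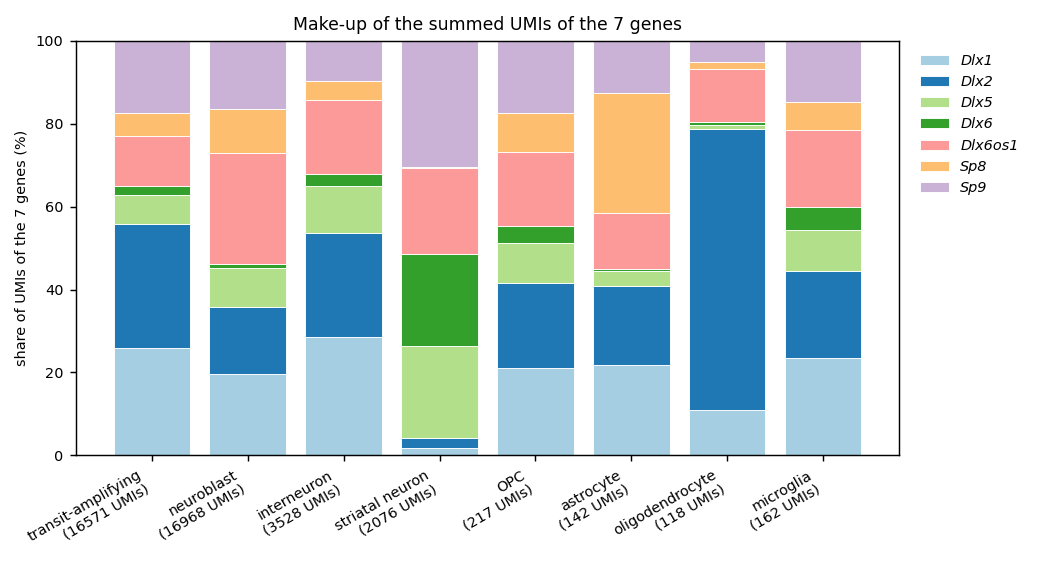
Share in percent of each gene in the summed UMIs of the 7 genes, by cell class, over the libraries with a sum. Dlx6 takes 22.2% in striatal neuron-like cells and 1.13% in neuroblast-like cells, and Dlx2 takes 67.8% in oligodendrocyte-like cells.

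The make-up of the summed UMIs differed between the classes. Dlx6 made up 1.13% (exact 95% interval 0.98 to 1.30) of the UMIs of the 7 genes in neuroblast-like cells, 2.0% (1.80 to 2.23) in transit-amplifying-like cells and 22.2% (20.4 to 24.0) in striatal neuron-like cells. Dlx1 made up 19.7%, 25.8% and 1.73% in the same order. Dlx2 took 30.1% in transit-amplifying-like cells, from 25.3 to 39.9% over the 5 libraries, and 12.7 to 21.1% over the 6 neuroblast-like libraries, with no overlap. Dlx6os1 took 3.61 to 14.9% of the transit-amplifying-like and 13.1 to 31.5% of the neuroblast-like UMIs.

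Between stages, neuroblast-like cells of 2 adult libraries (P60 cortex and P60 white matter) were set against those of the 4 early postnatal libraries. The quasi-likelihood test of edgeR called 0 of the 7 genes, and 0 had an unadjusted p under 0.05. DESeq2 called 0 of them as well. Only 4 of 8267 genes (0.0484%) were called in all, and 540 (6.53%) had an unadjusted p under 0.05. Dlx1 averaged 595 ± 30.8 CPM (SD, n = 2) in the adult and 634 ± 175 CPM (n = 4) in the early postnatal libraries. Dlx6os1 had the largest difference, at 959 ± 31.3 against 634 ± 359 CPM. Its log2 fold change was 0.58 ± 0.39 (SE), and edgeR's adjusted p was 0.818. The other 6 lay between -0.15 ± 0.33 (Sp9) and 0.30 ± 0.45 (Dlx6). Adult and early values overlapped for all 7, where only 18.0% of all 8267 genes had groups that did not overlap. Overlap thus does not set the 7 apart from other genes. Of 100 genes simulated with a 2-fold change among 7819 in this comparison, 10 were recovered, and of 100 with a 4-fold change 48 were.

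In OPC-like and astrocyte-like cells, none of the 7 genes reached the count filter of the stage comparison, so there is no test. The adult OPC-like sums held 1 Dlx1 UMI, 1 Dlx5, 2 Dlx6os1 and 1 Sp9 UMI among 1371951 UMIs, and 0 of Dlx2, Dlx6 and Sp8. The early postnatal sums held 45 Dlx1 and 44 Dlx2 UMIs among 10982816. P15 cortex, with 2989092 of these UMIs, held 1 Dlx1 and 0 Dlx2 UMIs, so the early postnatal counts came from the P2 and P7 libraries but for that 1 UMI. The ratio of adult to early levels for Dlx2 had an upper limit of 0.70 (exact 95% interval), and that for Dlx1 was 0.178 (0.00441 to 1.04). Of the 26 Dlx2 UMIs of P7 SVZ OPC-like cells, 10 sat in 1 cell, which an interval for counting error does not cover. The OPC-like Dlx2 levels, at most 5.70 CPM, lay below the microglia-like 7.33 CPM of P7 cortex and above the 0.84 CPM of P7 SVZ in the early libraries with Dlx2 UMIs.

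At P7 the SVZ and cortex libraries can be set side by side, with 1 library each and with region and strain that cannot be told apart. In neuroblast-like cells, the ratio of SVZ to cortex had an interval below 1 for all genes of the set but Dlx6. How many of all genes would do so was not counted, so this marks no trait of the set. The ratio was 0.555 (exact 95% interval 0.510 to 0.604) for Dlx1, 0.427 (0.388 to 0.470) for Dlx2, 0.519 (0.474 to 0.567) for Sp9 and 0.956 (0.653 to 1.40) for Dlx6. These cells came mostly from different clusters, 11 in cortex and 14 in SVZ, and 39.8% of SVZ barcodes had been left out for mitochondrial UMIs against 4.31% in cortex. The part of cluster and quality in these ratios was not tested. Cluster 14 had 0.416 times the UMIs per cell of its library. In transit-amplifying-like cells all 7 ratios were below 1, from 0.425 (Sp8) to 0.821 (Dlx6os1), and cluster 36 made up 314 of the 638 SVZ cells. How many of all genes had a ratio below 1 was not counted here either. The direction of the transit-amplifying-like ratios depended on the clustering. With the 7 genes kept in it, 6 of the 7 transit-amplifying-like ratios were above 1, from 1.63 (1.47 to 1.81) for Dlx1 to 14.15 (9.51 to 22.02) for Dlx6os1, and Dlx2 was at 0.844 (0.772 to 0.924). The P7 cortex sum of the class then held 6.50 CPM of Dlx6os1, against 165 CPM when the genes were left out of the clustering, and the SVZ sum 91.9 against 135 CPM. In that clustering the neuroblast-like ratios stayed within their counting intervals. At a mitochondrial limit of 20% the neuroblast-like ratio of Dlx1 was 0.498, of Dlx2 0.378 and of Sp9 0.472, each below its interval, and the rest stayed within. Within cluster 0, which both libraries share, Dlx1 was at 225 CPM in SVZ and 361 in cortex. Dlx2, Dlx6, Sp8 and Sp9 were also lower in SVZ there. Dlx5 (126 and 108 CPM) and Dlx6os1 (198 and 165 CPM) were higher.

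A list of 48 other genes of the inhibitory lineage put these values in context. It was chosen with results of these data known, so its direction supports nothing. Against OPC-like cells, edgeR called 25 of 39 tested genes higher and 9 lower in neuroblast-like cells, beside 22.7% and 27.3% of all genes. Of the 38 that were tested between transit-amplifying-like and neuroblast-like cells, edgeR called 26 lower and 8 higher, with a median log2 fold change of -1.46, beside 28.0% and 27.0% of all genes. The progenitor factors Gsx1 (log2 fold change 5.41), Nr2e1 (5.09) and Gsx2 (4.22) were among those higher in transit-amplifying-like cells, while Prokr2, a receptor in neuroblast migration, had -6.37 and the receptor Erbb4 -4.68. In striatal neuron-like cells 25 of 35 were lower and 9 higher than in neuroblast-like cells, with the striatal factors Ebf1 (6.37), Isl1 (5.27), Rarb (4.94) and Foxp1 (4.70) at the top and Pax6 (-7.60) at the bottom. Of all 9293 genes in that comparison, 1206 were lower and 16.6% higher. In interneuron-like cells 18 of 35 were lower and 10 higher, led by Lhx6 (6.98) and with Meis2 (-6.21) lowest. Of all 9224 genes in that comparison, 7.96% were lower and 1103 genes (12%) higher. None of 29 was called between stages in neuroblast-like cells. Of 13 dorsal excitatory genes, 8 were tested between transit-amplifying-like and neuroblast-like cells and 6 were higher, where 27.0% of all genes were, among them Neurog2 (6.89, at 29.2 against 0.2 CPM).

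Of 11 other genes of the 2 families, 9 were in the files. Dlx3 and Dlx4 had 0 UMIs in all transit-amplifying-like, neuroblast-like, interneuron-like, striatal neuron-like and glial sums. Sp3, a broadly made Sp factor, was at 78.02 ± 30.7 CPM (SD, n = 6) in neuroblast-like, 66.3 ± 16.0 CPM (n = 5) in transit-amplifying-like and 44.8 ± 14.7 CPM (n = 7) in OPC-like cells. Sp1 was at 10.2 ± 6.44 CPM, Sp2 at 12.3 ± 6.25 CPM and Sp4 at 35.3 ± 9.68 CPM in neuroblast-like cells, beside 16.9 ± 6.89, 14.4 ± 2.43 and 17.6 ± 6.85 CPM in transit-amplifying-like cells. Sp7 was at 18.2 ± 9.84 CPM (n = 4) in oligodendrocyte-like and 1.51 ± 2.66 CPM in neuroblast-like cells. Sp5 was at 7.31 ± 8.82 CPM and Sp6 at 10.2 ± 6.996 CPM (n = 6) in astrocyte-like cells. Of the 4 tested between transit-amplifying-like and neuroblast-like cells, edgeR called 1 lower, which was Sp4, and 0 higher.

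Across the 69 class-by-library sums, the 7 genes followed each other, with Pearson's r of log2(CPM + 1) between 0.805 (Dlx6 and Sp8) and 0.967 (Dlx5 and Sp9). The sums share libraries and differ in depth, so these values describe and carry no p. A high r over all sums leaves room for genes to part in single classes, as in striatal neuron-like cells. Among 13660 other genes, Dlx1as was closest to Dlx1 (r = 0.846), Dlx2 (0.805), Dlx6os1 (0.859) and Sp8 (0.853). Gad2 was closest to Dlx5 (0.889) and Sp9 (0.928), and the vesicular GABA transporter gene Slc32a1 to Dlx6 (0.903).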

How the data were processed

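Single cells of 7 mouse brain libraries were measured. In the deposited files the values are raw counts, 1 per UMI, for each gene and barcode. Per the file headers, the authors used Cell Ranger 3.0.2. The genome was mm10, per the submitters' processing notes. For the annotation release and the strand setting, none is given in the sources used here. No normalisation was applied to the deposited counts.

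Filters removed 1304 barcodes with under 500 genes, 4391 above 10% mitochondrial UMIs and 305 that Scrublet called doublets (1.45%, expected rate 0.06). With the 7 genes removed, cells were clustered in scanpy 1.11.5 (2000 variable genes, 30 principal components, 15 neighbours, Leiden resolution 1.5), and clusters were named from marker lists that held none of the 7. A name needed at least 3 markers that were at least 2-fold higher and seen in 10% of cells. The members and all lists were chosen with earlier results of these data known. The named genes are the 7 members, the 3 genes with the most alike pattern for each, and the extremes of the lists, of which 1 gene is not reported here.

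Counts were summed per class and library (20 cells or more) and tested with edgeR 4.0.16's quasi-likelihood test (R 4.3.3) at a Benjamini-Hochberg adjusted p of 0.05. Classes were compared with the library as a block, since both classes of a library came from the same tissue, and stages without it. The code was tested on simulated data. Shares of cells used 2000 UMIs drawn from each cell. The SE of a fold change was its absolute log2 value divided by the square root of the F of its test. Intervals are exact, at 95%, and cover counting error only. Alternatives were DESeq2 1.42.0, no count filter, no block, a 20% mitochondrial limit, Leiden resolution 1.0, at least 50 cells, the members kept in clustering, 1000 UMIs, and leaving out each library.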

Additional observations from a re-analysis of the deposited data

Results flagged for a closer look

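Of 26 groups of 4 to 10 libraries with at least 20 UMIs of a gene, 2 held a library far from the others, and chance flags about 1 in 20 groups. In OPC-like cells Dlx2 was at 0 CPM in P15 cortex, while the other early postnatal libraries were between 4.90 and 5.70 CPM. In committed precursor (COP)-like cells Dlx2 stood at 6.69 CPM in P7 cortex, while the other early postnatal libraries were between 2.28 and 2.87 CPM. Taken over all libraries, these levels are within the range of microglia-like cells, but this differed by library. Within P7 cortex, OPC-like (5.39 CPM) and COP-like cells (6.69 CPM) were below the microglia-like 7.33 CPM. Within P7 SVZ, OPC-like (5.70 CPM) and COP-like cells (2.87 CPM) were above the microglia-like 0.84 CPM.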

How the results depend on the processing

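The library block decided 1 comparison: without the replicate block, 0 of 7 genes were called between interneuron-like and neuroblast-like cells, and transit-amplifying-like Dlx2 (-0.75) and Dlx6 (-0.91) lost their call. It changed no other call among the 7 genes. The share of neuroblast-like cells with any of the 7 genes was 92.5% when thinned to 1000 UMIs. Leaving out each library in turn kept 7 of 7 genes called against OPC-like and astrocyte-like cells and 6 to 7 against oligodendrocyte-like cells.

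In neuroblast-like cells the stage differences of 6 of the 7 genes, none of which was called, changed sign under some settings, while Dlx6os1 stayed above 0 under all settings run, from 0.35 without P2 cortex to 0.92 without P7 cortex. Dlx5 came to 0.018 with the 7 genes kept in the clustering and to 0.18 with at least 50 cells per sum, where Sp8 came to -0.10. Without P2 cortex Sp8 was -0.058. Without P7 cortex Dlx1 was 0.092, Dlx2 0.15, Dlx5 0.050 and Sp9 0.16. Without P15 cortex Dlx5 was 0.048 and Sp8 -0.015, and without P60 cortex Dlx5 was 0.10. Without P60 white matter Dlx1 was 0.00052, Dlx2 0.0079, Dlx6 -1.08 and Sp9 0.050. Over these libraries left out, Dlx1 ran from -0.21 to 0.092, Dlx2 from -0.29 to 0.15, Dlx5 from -0.23 to 0.10, Dlx6 from -1.08 to 0.64, Sp8 from -0.058 to 0.31 and Sp9 from -0.34 to 0.16.

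Counts of genes called higher and lower moved more. Without the block they were 1557 and 1865 against OPC-like cells (with it 2398 and 2884), 1689 and 1652 for transit-amplifying-like (2711 and 2808), 43 and 23 for interneuron-like (1103 and 734) and 536 and 232 for striatal neuron-like cells (1547 and 1206). DESeq2 called 362 and 185 for interneuron-like and 783 and 400 for striatal neuron-like cells. A 20% mitochondrial limit gave 605 and 257 for interneuron-like cells. Without P60 white matter the oligodendrocyte-like comparison gave 1098 and 1640 (1891 and 2887). Between stages, neuroblast-like counts of 2 and 2 became 5 and 5 with DESeq2 and 34 and 71 with no filter, and 0 to 5 and 0 to 13 with a library left out. OPC-like counts of 303 and 352 became 596 and 648 with no filter, and 5 to 615 and 6 to 581 with a library left out. Astrocyte-like counts of 1 and 2 became 155 and 187 with DESeq2, 249 and 343 with no filter, 6 and 7 with the 7 genes in the clustering, 5 and 4 at resolution 1.0, and 0 to 801 and 0 to 737 with a library left out. At P7, with the 7 genes kept in the clustering, the transit-amplifying-like ratio of SVZ to cortex turned to above 1 for Dlx1 (1.63), Dlx5 (6.27), Dlx6 (5.61), Dlx6os1 (14.15), Sp8 (6.12) and Sp9 (4.16). The causes were not tested. At least 50 cells per sum was not run against oligodendrocyte-like cells or for interneuron-like cells, and leaving out libraries was not run for the 2-library comparisons.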

Other observations

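A few P60 cortex cells fell short of the 20 needed for a sum. The 17 interneuron-like cells (100150 UMIs) held 36 UMIs of Dlx1, 11 of Dlx2, 5 of Dlx5, 5 of Dlx6, 23 of Dlx6os1, 2 of Sp8 and 4 of Sp9. Dlx1 was seen in 15 of these 17 cells and Dlx2 in 10. The 16 transit-amplifying-like cells (172218 UMIs) held 51 UMIs of Dlx1, 69 of Dlx2, 32 of Dlx5, 6 of Dlx6, 24 of Dlx6os1, 12 of Sp8 and 24 of Sp9. Dlx2 was seen in 13 of these 16 cells.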
